A study of Mus musculus with 2 samples.

Results

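Arginase 1, inducible nitric oxide synthase, the itaconate enzyme Acod1 and 6 genes tied to alternative macrophage activation (Arg1, Nos2, Chil3, Retnla, Ccl24, Acod1, Il4ra, Clec10a and Mgl2) were followed in single cells of the mouse abdominal aorta. The 9 genes were picked by symbol from the 31253 features of the count tables, and each symbol matched 1 feature. Both libraries came from abdominal aorta of mice in which an abdominal aortic aneurysm (AAA) had been induced with PPE. The control library came from wild-type (WT) C57BL/6J mice, and the other came from mice with a global deletion of Gsdme (Gsdme-KO), which encodes the pore-forming protein gasdermin E. Both groups had therefore been given PPE, and no aorta without aneurysm was analysed. The labels give neither the number of mice per library nor the age, sex or time after PPE, and the deletion was not limited to any cell type. With 1 library per group the genotype and the library cannot be told apart, no test between the groups was possible, and every interval below is a 95% interval for counting error alone.

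Macrophages exposed to the cytokines IL-4 and IL-13 signal through a receptor that contains Il4ra and through the transcription factor STAT6. In the mouse this response raises Arg1, which splits arginine into ornithine and urea, together with secreted proteins such as Chil3 (Ym1) and Retnla (resistin-like molecule alpha), the eosinophil-attracting chemokine Ccl24, and the galactose-binding lectins Clec10a and Mgl2. Nos2 uses the same substrate, arginine, to make nitric oxide, and Acod1 makes itaconate from a Krebs cycle intermediate. Both belong to the response to bacterial products and interferons and serve here as the counterpart of the IL-4 genes. In the diseased aorta these genes are used to describe which state monocyte-derived and resident macrophages are in.

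The promoter sequences below are shown because the genes with them are read side by side in the results, and because each of the 4 windows holds a different set of the motifs searched. RefSeq promoters of build GRCm38.p6 were found for 5 of the 9 genes (Chil3, Retnla, Acod1, Il4ra and Mgl2). Each window of 190 bases runs from 250 to 61 bases before the RefSeq start, 5′ to 3′ on the strand of the gene. The Il4ra window overlaps a transcript that starts further upstream and is not printed. Capitals mark matches, on either strand, to a STAT motif (TTC, any 4 bases, GAA), a C/EBP motif (TTNNGNAA) or an ETS motif of the PU.1 type (GAGGAA).
Retnla, chr16:48842359-48842548, plus strand: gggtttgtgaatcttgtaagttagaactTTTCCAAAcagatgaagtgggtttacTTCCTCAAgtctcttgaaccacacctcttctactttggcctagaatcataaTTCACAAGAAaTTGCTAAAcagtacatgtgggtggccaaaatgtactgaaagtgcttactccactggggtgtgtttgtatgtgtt
Chil3, chr3:106167625-106167814, minus strand: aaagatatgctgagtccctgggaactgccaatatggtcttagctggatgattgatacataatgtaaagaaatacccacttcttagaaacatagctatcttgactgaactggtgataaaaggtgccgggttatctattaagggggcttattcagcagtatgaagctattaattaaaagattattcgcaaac
Acod1, chr14:103046762-103046951, plus strand: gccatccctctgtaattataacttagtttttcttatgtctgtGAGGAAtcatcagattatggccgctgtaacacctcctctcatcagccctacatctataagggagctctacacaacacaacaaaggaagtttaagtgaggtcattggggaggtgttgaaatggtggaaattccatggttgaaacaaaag
Mgl2, chr11:70130107-70130296, plus strand: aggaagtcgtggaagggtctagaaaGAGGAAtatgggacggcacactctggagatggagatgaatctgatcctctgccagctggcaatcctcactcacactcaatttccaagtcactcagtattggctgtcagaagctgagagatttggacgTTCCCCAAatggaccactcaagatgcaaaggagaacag
The STAT motif with 4 bases between TTC and GAA was found in the Retnla window only, as TTCACAAGAA at 145 to 136 bases before the start. Of the 32851 RefSeq promoter windows of this length, 4.54% hold it. Other spacings were not searched, and the Chil3 window holds ttcttagaa, which has a shorter spacing. The C/EBP motif was found in the Retnla and Mgl2 windows and in 31.2% of all windows. The ETS motif was found in the Retnla, Acod1 and Mgl2 windows and in 18.0% of all windows. In the Retnla window the ETS match lies inside the C/EBP match TTCCTCAA. An AP-1 motif (TGANTCA, 5.22% of all windows) and an IRF motif (GAAA, any 2 bases, GAAA, 2.34%) were in none of the 5 windows searched. The Chil3 window held none of the 5 motifs in the forms searched. These are matches of letters within these windows and do not show that any factor binds there.

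The WT library held 7736 barcodes and 38988898 UMIs and the Gsdme-KO library 9034 barcodes and 52532964 UMIs, where a UMI marks 1 captured RNA molecule. After the cell filter 7619 and 8784 cells remained, with medians of 3835 and 4062 UMIs, and 73 barcode sequences occurred in both libraries. Gsdme itself was counted at 5.53 counts per 1000000 UMIs (CPM) in the WT library and 2.55 CPM in the Gsdme-KO library, a ratio of 0.461 (0.368 to 0.575). Which exons were deleted is not stated in the labels, so the remaining Gsdme reads do not check the deletion fully. Cells were grouped into 26 clusters made without the 9 genes, and a cluster was given a name ending in "-like" from marker genes. The results turn mostly on the monocyte-like cluster 2, macrophage-like cluster 3 (led by Lyve1, Fcna and C6), macrophage-like cluster 5 (Slc40a1, Gpnmb and Mmp12), cluster 8 (Il2ra, Cd72 and Mmp13) and the dividing macrophage-like cluster 21 (Top2a and Pclaf). Another 5 clusters, with 1157 and 1704 cells and medians of only 858 and 922 UMIs, stayed unnamed.

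Across all kept cells, Arg1 alone of the 8 genes with enough UMIs differed by at least 1.5-fold between the libraries. A ratio was read only where a gene had at least 30 UMIs over both libraries and at least 5 CPM in the higher of them, and among all genes meeting this 5.28% were higher and 4.71% lower in the Gsdme-KO library by that fold. Arg1 was counted at 296 CPM (WT) and 159.6 CPM (Gsdme-KO), a ratio of 0.539 (0.524 to 0.554). Retnla stood at 429 and 322 CPM, Acod1 at 417 and 326 CPM, Clec10a at 182 and 258 CPM, and Mgl2 at 102 and 105 CPM. Il4ra was counted at 82.1 and 69.3 CPM, Chil3 at 16.5 and 17.3 CPM, and Ccl24 at 9.06 and 6.25 CPM. Nos2, with 82 and 178 UMIs in all, stood at 2.11 and 3.41 CPM, below the level at which a ratio was read.

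By cell class, the alternative activation genes and Acod1 were counted in different cells. Monocyte-like and macrophage-like cells together held 95.9% of Arg1 UMIs in WT and 90.3% in Gsdme-KO, 86.5% and 89.8% of Retnla UMIs, and 87.7% and 89.2% of Clec10a UMIs. Neutrophil-like cells held 73.7% and 71.2% of Acod1 UMIs. Il4ra was the most even of the genes, and Nos2 was sparse everywhere. In 9 classes with at least 100 cells per library, 59 of the 81 gene and class pairs had enough UMIs for a ratio. Of these, 14 were at least 1.5-fold higher and 17 at least 1.5-fold lower in the Gsdme-KO library, beside 6.69% higher and 9.61% lower over all gene and class pairs. Several of these pairs rest on 1 to 3 cells, as described near the end of the account.

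**Figure D1:**
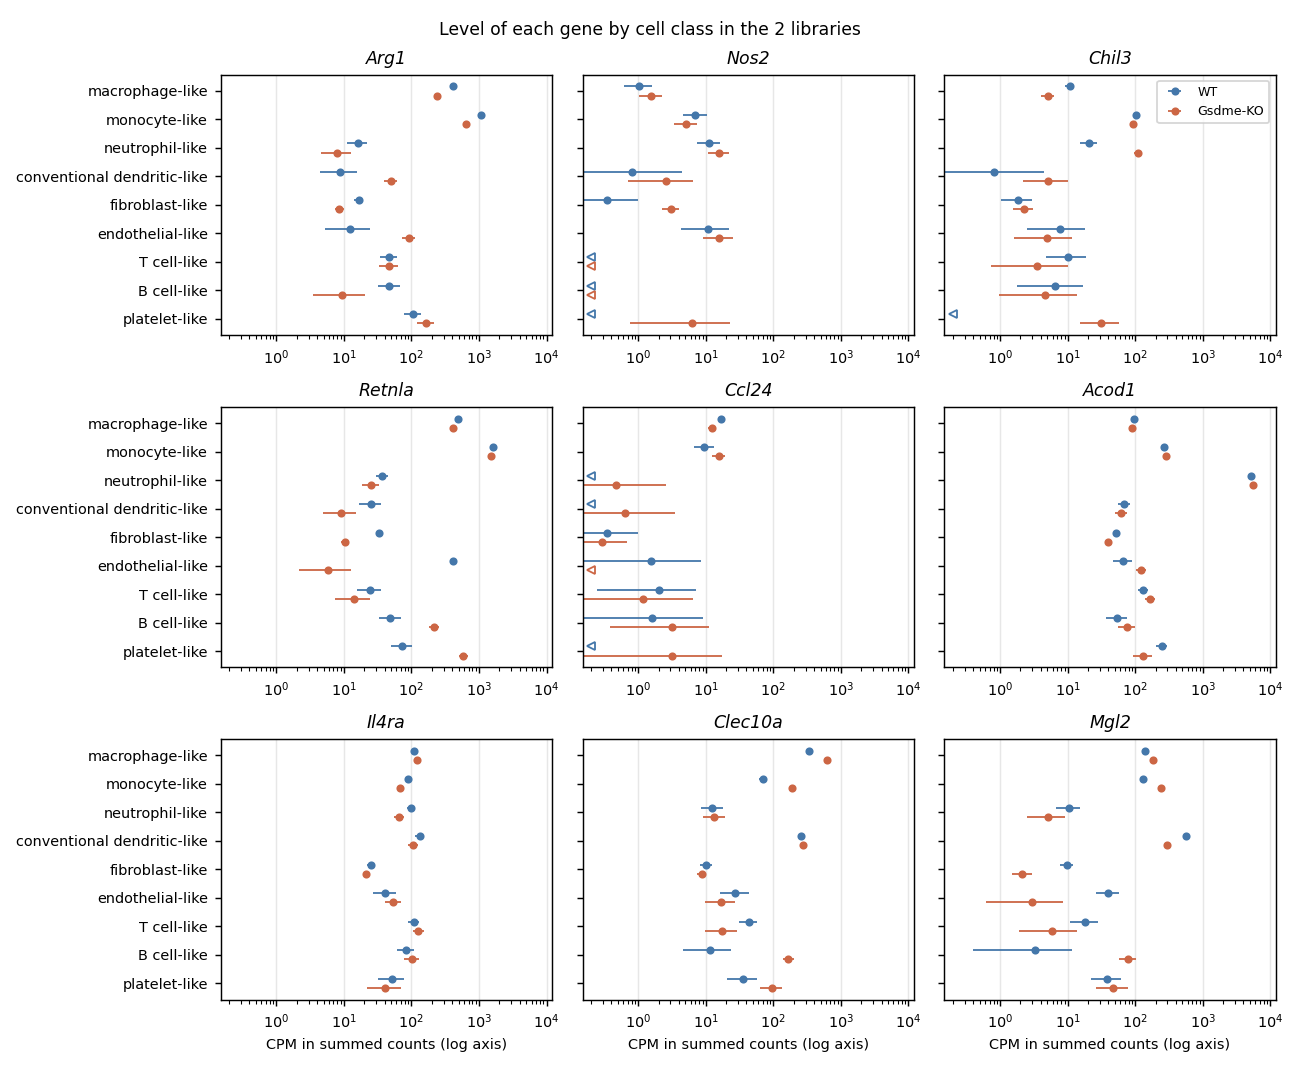
Each panel plots 1 gene in CPM on a log axis for 9 cell classes, with blue points for the WT library and orange points for the Gsdme-KO library and lines for 95% Poisson intervals (cut off at the edge of the panel where they reach it). Open triangles at the left edge mark a class with 0 UMIs. Acod1 peaks at 5179.7 and 5600.4 CPM in neutrophil-like cells, Arg1 and Retnla peak in monocyte-like cells, and Il4ra is spread over most classes.

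Arg1 (chr10:24915221-24927484, minus strand, GRCm38) was, in the main clustering, highest in monocyte-like cells, at 1088 CPM (WT) and 638 CPM (Gsdme-KO). The ratio was 0.587 (0.560 to 0.615), and Arg1 was the 1 of the 9 genes that was lower there by 1.5-fold, beside 7.29% of all genes. Macrophage-like cells followed at 408 and 239.9 CPM, a ratio of 0.588 (0.566 to 0.611). In both libraries the intervals of these classes did not overlap each other or that of the next class.

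Most of the Arg1 RNA came from few cells. Of the monocyte-like cells, 29.5% in WT and 23.1% in Gsdme-KO had an Arg1 UMI, and 13.9% and 9.69% had at least 10. Where each cell was thinned to 1000 UMIs, which left out 1118 and 1431 shallower cells of all classes, the shares with an Arg1 UMI were 19.6% and 15.5%. The same share in lymphocytes, which should lack Arg1, was 4.93% and 2.14% in B cell-like cells and 4.73% and 6.29% in T cell-like cells before thinning. These lymphocytes had medians of 2185 to 2718 UMIs, against 5193 and 5745 UMIs in monocyte-like cells. In monocyte-like and macrophage-like cells combined, cells with at least 10 Arg1 UMIs made up 8.72% in WT (259 cells) and 6.69% in Gsdme-KO (193 cells). These cells held 88.5% and 84.1% of the Arg1 UMIs of both classes, and each held 37.7 and 32.8 UMIs on average. Cells with at least 10 Arg1 UMIs were thus fewer in the Gsdme-KO library and their Arg1 level was also somewhat lower, though the floor of 10 UMIs itself limits how low that level can be.

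The size of the Arg1 difference depended on where the cells were divided. In macrophage-like cluster 5, which held more of the Arg1 UMIs than any other cluster in both libraries, Arg1 stood at 806 and 732 CPM, a ratio of 0.908 (0.873 to 0.945), and 40.02% and 43.3% of cells had an Arg1 UMI. For monocyte-like and macrophage-like cells combined it was 522 and 328 CPM, a ratio of 0.628 (0.610 to 0.647), which ranged from 0.622 to 0.642 over the 8 clusterings tried. In the single cluster with the highest Arg1 level, the ratio lay between 0.587 and 1.01 over 7 of these clusterings. The name of that cluster changed as well. It was monocyte-like in the main clustering, with at most 10% mitochondrial UMIs and at Leiden resolution 2, and macrophage-like in the others. When the 9 genes were kept among the clustering genes, 83.4% of Arg1 UMIs fell into a cluster of 590 WT and 485 Gsdme-KO cells, 7.74% and 5.52% of the libraries. Arg1 in it stood at 2223 and 1934.5 CPM, a ratio of 0.870. In that clustering the cells named monocyte-like had an Arg1 ratio of 1.08, so the ratio of 0.587 in monocyte-like cells turned with the choice of clustering genes. In this clustering and in the count of cells with at least 10 UMIs, which was added after the data had been seen, Arg1-rich cells took a smaller share of the Gsdme-KO library and their Arg1 level was within 1.5-fold. Both choices of cells used Arg1 itself, so a similar level in them follows in part from the choice. These values therefore cannot separate fewer Arg1-rich cells from less Arg1 per cell.

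Arg1 was also counted in the dividing cluster 21, at 278 and 144 CPM, and in platelet-like cells, at 105 and 164 CPM from 47 and 52 UMIs. In macrophage-like cluster 8 it stood at 30.8 and 10.2 CPM, and in neutrophil-like cells at 16.04 and 7.86 CPM from 37 and 17 UMIs, where the neutrophil-like ratio was 1.02 at Leiden resolution 2. Fibroblast-like cells had 16.5 and 8.61 CPM, with a UMI in 7.20% and 3.26% of cells, close to the lymphocyte shares. The summed level of the 18 macrophage markers in fibroblast-like cells moved the same way, from 885 to 446 CPM, and its part in the Arg1 value was not tested.

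Nos2 (chr11:78920787-78960254, plus strand) was near the limit of detection in all classes. Neutrophil-like cells gave 26 UMIs in WT and 34 in Gsdme-KO, or 11.3 and 15.7 CPM, a ratio of 1.39 (0.812 to 2.42). Endothelial-like cells gave 10.7 and 15.8 CPM, from 5 of 106 and 9 of 139 cells, which is 4.72% and 6.47% of them. Monocyte-like cells gave 7.04 and 5.12 CPM and macrophage-like cells 1.02 and 1.57 CPM. The intervals of neutrophil-like and endothelial-like cells overlapped in both libraries, so no order between them can be given. No Nos2 UMI was counted in B cell-like or T cell-like cells, which allows a share of up to 1.35% and 1.60% of B cell-like and 0.946% and 1.05% of T cell-like cells with a UMI. In fibroblast-like cells 3 UMIs were counted in WT and 52 in Gsdme-KO, the latter in 14 cells and 18 of them in 1 cell.

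Most other genes of arginine, nitric oxide and polyamine metabolism were within 1.5-fold. Of the 20 listed, 17 had enough UMIs in macrophage-like cells, none was higher and 2 were lower by 1.5-fold, beside 3.68% higher and 5.21% lower among all genes, and the median log2 ratio was -0.19 against -0.07 for all genes. Ass1, which remakes arginine from citrulline, stood at 12.4 and 5.71 CPM (ratio 0.459, 0.359 to 0.583), and Gatm, which uses arginine to make the creatine precursor, at 301 and 200 CPM (0.666, 0.639 to 0.696). Odc1, which turns ornithine into putrescine, stood at 363 and 394 CPM, and Sat1, which acetylates polyamines, at 474 and 622 CPM. Ass1 was also lower in monocyte-like cells, at 60.6 and 28.0 CPM (0.462, 0.371 to 0.574). Odc1, which acts after arginase in the polyamine route, was therefore not lower where Arg1 was, while Ass1 was.

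Acod1 (chr14:103046977-103056573, plus strand) was a neutrophil-like gene in these data. In neutrophil-like cells it reached 5179.7 CPM (WT) and 5600.4 CPM (Gsdme-KO), a ratio of 1.08 (1.05 to 1.11), and 80.0% and 83.3% of these cells had a UMI at medians of 1656 and 1571 UMIs per cell. The share was 6.28% and 4.81% in B cell-like cells and 11.7% and 11.5% in T cell-like cells. Within neutrophil-like cells, cluster 9 (led by S100a9, S100a8 and Cxcr2) had 7659 and 7525 CPM, and the level was 4030.2 and 4191 CPM in cluster 10 (Il23a, Il1r2 and Siglecf). Cluster 9 was thus above cluster 10 in both libraries, and neither differed between libraries by 1.5-fold. Monocyte-like cells followed at 266 and 288 CPM, with a UMI in 41.1% and 43.5% of cells, and macrophage-like cells at 95.1 and 88.3 CPM. In neutrophil-like, monocyte-like and macrophage-like cells and in clusters 9 and 10 the Acod1 ratio stayed within 1.5-fold under every alternative tried. The lower value over all kept cells, 326 against 417 CPM, came with fewer neutrophil-like cells (14.4% against 16.9% of the library), and with the WT cluster shares applied to the Gsdme-KO cluster levels the ratio over all cells was 0.981 in place of 0.782.

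Retnla (chr16:48842551-48844461, plus strand) was far lower in macrophage-like cluster 3 of the Gsdme-KO library and, in the main clustering, nearly level in monocyte-like cells. It was also far lower in the unnamed cluster 6, at 1988 and 615 CPM, a ratio of 0.309 (0.276 to 0.347). The best marker list of cluster 6 was that of macrophages, at medians of only 867 and 958 UMIs per cell. In cluster 3 it was counted at 1576 CPM (WT) and 521 CPM (Gsdme-KO), and the ratio was 0.331 (0.319 to 0.343), with 0.274 to 0.360 over 12 alternatives. Retnla and Ccl24 were the 2 of 7 measurable genes that were lower there by 1.5-fold, beside 5.4% of all genes, and Arg1 was higher (17.02 and 29.8 CPM), beside 3.54%. The Arg1 value rests on 10 cells with 79.6% of the Gsdme-KO UMIs, and without the richest 1% of cells its ratio was 0.706 in place of 1.75. Cells with a Retnla UMI made up 50.7% and 32.9% before thinning and 30.1% and 15.4% after it, and cells with at least 10 UMIs made up 23.4% and 11.2%. In B cell-like cells 8.07% and 7.49% had a Retnla UMI, and in T cell-like cells 6.94% and 3.85%. Cells with at least 10 Retnla UMIs numbered 148 in WT and 110 in Gsdme-KO. Both the share of Retnla-positive cells and the share of Retnla-rich cells were lower in Gsdme-KO cluster 3. That cluster held 983 Gsdme-KO cells against 633 WT cells, so the lower share of Retnla-positive cells before thinning was not a lower number of them. The 18 macrophage markers summed there to 17298 and 18675 CPM and the 10 monocyte markers to 5349 and 5958 CPM. The 9 neutrophil markers summed to 353 and 127 CPM, with 1 of 9 higher in Gsdme-KO and none at 0, and their part in the Retnla value was not tested.

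In monocyte-like cells Retnla stood at 1604 and 1502 CPM, a ratio of 0.936 (0.905 to 0.969). That ratio ranged from 0.351 to 1.11 over 12 alternatives. It passed 1.5-fold in 1 of them, with at most 10% mitochondrial UMIs. A Retnla UMI was found in 20.7% and 19.1% of the monocyte-like cells. The richest 1% of these cells, 7 and 9 cells, held 35.4% and 36.4% of the UMIs, so its level there rests on few cells in each library. The dividing cluster 21 went the other way, at 316 and 1946 CPM, a ratio of 6.15 (5.48 to 6.93). That cluster had 114 and 106 cells, and 80.2% of its WT UMIs and 44.5% of its Gsdme-KO UMIs lay in 2 cells each. Its makeup also differed: the summed neutrophil markers were at 560 and 86.5 CPM, the monocyte markers at 2774 and 4362.5 CPM, and the conventional dendritic markers at 188 and 704 CPM. Their part in the Retnla value was not tested. In cluster 21 as a whole 3 of 7 measurable genes were higher (Retnla, Clec10a and Mgl2) and 3 lower (Arg1, Chil3 and Acod1), beside 8.25% and 13.4% of all genes. Chil3 had 104 WT and 5 Gsdme-KO UMIs in this cluster, with nearly all of the WT UMIs in 1 cell. Clec10a stood there at 22.1 and 216 CPM, Mgl2 at 61.5 and 267 CPM, and Acod1 at 168 and 71.1 CPM. In cluster 5 Clec10a was higher (17.9 and 27.3 CPM) and Retnla lower (25.9 and 16.9 CPM) among 7, beside 3.2% and 4.47%. In cluster 8 Chil3 and Mgl2 were higher and Arg1 and Retnla lower among 7, beside 6.24% and 8.17%, and Retnla stood there at 94.99 and 50.8 CPM. Over all macrophage-like cells the clusters added up to 496 and 419 CPM, a ratio of 0.845.

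Ccl24 (chr5:135569937-135573049, minus strand) was sparse, with 352 and 326 UMIs in all, and followed Retnla in cluster 3. Its level there was 54.7 CPM (WT) and 21.1 CPM (Gsdme-KO), a ratio of 0.385 (0.320 to 0.463), with a range of 0.340 to 0.409 over 12 alternatives. Cells with a Ccl24 UMI made up 23.5% and 12.5% before thinning and 6.37% and 2.66% after it, against 0.448% and 1.07% of B cell-like and 0.631% and 0.350% of T cell-like cells. Cluster 3 was the main source, with 273 of the 352 WT and 208 of the 326 Gsdme-KO UMIs. Macrophage-like cells as a whole had 16.8 and 12.5 CPM and held 84.1% and 68.7% of Ccl24 UMIs. In monocyte-like cells it stood at 9.58 and 15.6 CPM, but 9 cells held 72.2% of the 79 Gsdme-KO UMIs. Without the richest 1% of cells the monocyte-like ratio was 0.959 in place of 1.63.

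Chil3 (chr3:106147554-106167564, minus strand) was highest in monocyte-like cells in the WT library, with neutrophil-like cells next. In the Gsdme-KO library the intervals of these classes overlapped. In monocyte-like cells it stood at 103 and 93.8 CPM, a ratio of 0.912 (0.794 to 1.05), with a UMI in 18.3% and 16.3% of cells. In neutrophil-like cells it stood at 20.8 and 110.04 CPM, a ratio of 5.29 (3.86 to 7.37) with a range of 4.54 to 12.2 over 12 alternatives. It was the 1 of 8 measurable genes that was higher there by 1.5-fold, beside 7.27% of all genes.

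Chil3 was detected in a larger share of Gsdme-KO neutrophil-like cells, but at this depth the share also depends on the level per cell. These values therefore do not separate more cells with Chil3 from more Chil3 per cell. Of the WT cells 1.78% had a Chil3 UMI (23 cells), and of the Gsdme-KO cells 6.87% (87 cells), and after thinning the shares were 1.38% and 6.00%. The WT share was close to the 1.35% of B cell-like and 0.946% of T cell-like cells, and the Gsdme-KO share was above the 0.535% and 1.05% in its lymphocytes. The WT lymphocytes were deeper, at medians of 2185 and 2718 UMIs against 1656 UMIs, so a similar share does not place WT neutrophil-like cells at background. Cluster 9 lay above cluster 10 here too, at 53.4 and 207 CPM, while cluster 10 had 5.71 and 39.2 CPM. In cluster 9, 1 WT cell and 6 Gsdme-KO cells had at least 10 Chil3 UMIs. Among 5 genes in cluster 9, Chil3 was higher and Retnla lower, beside 9.91% and 9.83% of all genes, and among 7 in cluster 10, Chil3 and Clec10a were higher and Il4ra lower, beside 8.28% and 8.48%. Counting error alone covers the Retnla ratio in cluster 9 (0.625, 0.318 to 1.21) and the Clec10a ratio in cluster 10 (1.68, 0.819 to 3.53). The 10 monocyte markers summed there to 6603 and 5703.5 CPM, with 6 of 10 higher in Gsdme-KO, and the 18 macrophage markers to 1567 and 1439 CPM, with 6 of 18 higher. The 9 fibroblast markers summed to 519 and 657 CPM, with 6 higher, and the 7 T cell markers to 13.4 and 24.04 CPM, all higher. The part of RNA from these cells in the Chil3 value was not tested. Arg1, Il4ra and Mgl2 were the 3 genes lower by 1.5-fold in neutrophil-like cells, beside 8.91% of all genes, from 37, 228 and 24 UMIs in WT. The Mgl2 interval (0.216 to 1.04) held 1.

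In macrophage-like cells Chil3 was near background, at 10.7 and 5.04 CPM with a UMI in 1.36% and 2.02% of cells. There 24 cells held 95.7% of the 188 WT UMIs, 102 of them in 1 cell of cluster 21, and without the richest 1% of cells the ratio turned from 0.471 to 2.59. Of the 50-base windows of Chil3 transcripts, 26.9% also occur in transcripts of Chil4 or Gm6522, so its counts depend on how shared reads were assigned. Chil4 was listed at 0 UMIs in both libraries in macrophage-like and monocyte-like cells.

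Il4ra (chr7:125552120-125579474, plus strand), the receptor chain for IL-4 and IL-13, had the flattest profile. Conventional dendritic-like cells had 134 and 106 CPM, macrophage-like cells 109 and 121 CPM, and T cell-like cells 108 and 127 CPM. B cell-like cells had 83.0 and 102 CPM and monocyte-like cells 88.7 and 67.4 CPM. The intervals of the first 6 classes in the WT order each overlapped the next, so these neighbours cannot be ranked. The highest level among the clusters named above was in cluster 3, at 181 and 155 CPM, with a UMI in 61.0% and 64.8% of cells. Neutrophil-like cells had 98.9 and 65.7 CPM, a ratio of 0.664 (0.535 to 0.823). This lies at the 1.5-fold boundary, and 6 of 12 alternatives passed it, with a range of 0.616 to 0.690. Fibroblast-like cells were lowest of the large classes, at 25.3 and 21.1 CPM. A gene on the opposite strand, Gm44876, overlaps Il4ra, and whether strand was used in counting is not stated, so reads of the pair cannot be told apart.

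The other genes of IL-4 and IL-13 signalling were close between libraries. In macrophage-like cells 15 of 18 had enough UMIs, of which 2 were higher and none was lower, beside 3.68% and 5.21% of all genes, and the median log2 ratio was 0.07 against -0.07. Il33, a cytokine released by damaged tissue cells, stood at 4.04 and 10.6 CPM (ratio 2.64, 1.997 to 3.51), and Tslp, an epithelial-type cytokine, at 11.2 and 18.6 CPM (1.66, 1.39 to 1.99). Pparg, a lipid-sensing nuclear receptor, stood at 34.8 and 24.0 CPM, Il13ra1 at 66.4 and 52.6 CPM, and the transcription factor Klf4 at 796 and 985 CPM. Stat6 itself was at 139 and 128 CPM, and was looked up after the values had been seen. The cytokines were nearly absent: Il4 gave 2 and 5 UMIs and Il13 gave 1 and 0 UMIs in macrophage-like cells. In cluster 3 Il33 was higher (5.21 and 8.61 CPM) and Pparg lower (27.4 and 13.98 CPM, ratio 0.510, 0.399 to 0.650) by 1.5-fold.

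Clec10a (chr11:70156197-70170834, plus strand), a lectin of resident macrophages and dendritic cells, was nearly uniform in cluster 3. It stood there at 1134 and 1072 CPM, a ratio of 0.945 (0.915 to 0.976), and 92.6% and 92.0% of the cells had a UMI. In macrophage-like cells as a whole it stood at 339 and 618 CPM, a ratio of 1.83 (1.77 to 1.88), with a UMI in 31.4% and 50.4% of cells. It was the 1 of 8 measurable genes that was higher there by 1.5-fold, beside 3.68% of all genes. Conventional dendritic-like cells had 259.98 and 274 CPM, a ratio of 1.05 (0.911 to 1.22). The share of cells with a UMI was 3.14% and 10.2% in B cell-like and 2.21% and 5.24% in T cell-like cells.

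In monocyte-like cells Clec10a stood at 70.4 and 187 CPM, a ratio of 2.66 (2.31 to 3.07) that ranged from 1.86 to 4.02 over 12 alternatives. Cells with a UMI made up 18.8% and 33.0% before thinning and 6.41% and 10.8% after it. Clec10a, Mgl2 and Ccl24 were the 3 of 9 measurable genes higher there by 1.5-fold, beside 5.93% of all genes. The B cell-like cells moved in the same direction, from 11.4 to 167 CPM, and platelet-like cells from 35.7 to 94.8 CPM. Other classes were not higher by 1.5-fold: T cell-like cells had 43.2 and 17.6 CPM, though their ratio turned to 2.21 after thinning. Endothelial-like cells had 27.5 and 16.8 CPM, fibroblast-like cells 10.2 and 8.67 CPM and neutrophil-like cells 12.6 and 13.4 CPM. In B cell-like cells the 18 macrophage markers moved from 2063 to 3785 CPM summed, with 1 of the 18 at 0 in WT and none in Gsdme-KO. The part of such RNA from other cells in the monocyte-like value was not tested. In monocyte-like cells the same macrophage markers summed to 5020 and 5352 CPM and the conventional dendritic markers to 386 and 590 CPM.

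Mgl2 (chr11:70130329-70137550, plus strand), the neighbour and close relative of Clec10a, lies 18646 bases from it. It was highest in conventional dendritic-like cells, at 569.6 and 295 CPM, a ratio of 0.518 (0.460 to 0.583), with a range of 0.490 to 0.650 over 12 alternatives. Arg1 was higher and Mgl2 and Retnla were lower by 1.5-fold among the 6 measurable genes of these cells, beside 8.02% higher and 9.66% lower among all genes. Cells with an Mgl2 UMI made up 27.4% and 23.5% before thinning and 18.8% and 14.4% after it. The share was 0.897% and 8.02% in B cell-like cells and 1.89% and 1.75% in T cell-like cells. The makeup of this cluster differed between the libraries: the 7 mature dendritic markers summed to 1841 and 739.6 CPM, each of them lower in Gsdme-KO, while the 10 conventional dendritic markers summed to 2993 and 3367 CPM. Their part in the Mgl2 value was not tested.

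In monocyte-like cells Mgl2 stood at 131 and 237 CPM, a ratio of 1.82 (1.63 to 2.03) with a range of 1.28 to 3.13, and 11.8% and 18.5% of the cells had a UMI. In cluster 3 it was lower in Gsdme-KO, at 418 and 280.5 CPM, a ratio of 0.670 (0.633 to 0.710), just within 1.5-fold, where Clec10a was nearly level. The lectin pair therefore shared a direction in monocyte-like cells and differed in size in cluster 3 and in conventional dendritic-like cells. Of the 50-base windows 9.02% of Clec10a and 13.1% of Mgl2 are shared with other genes, mainly with each other, so part of their counts depends on how shared reads were assigned.

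**Figure D2:**
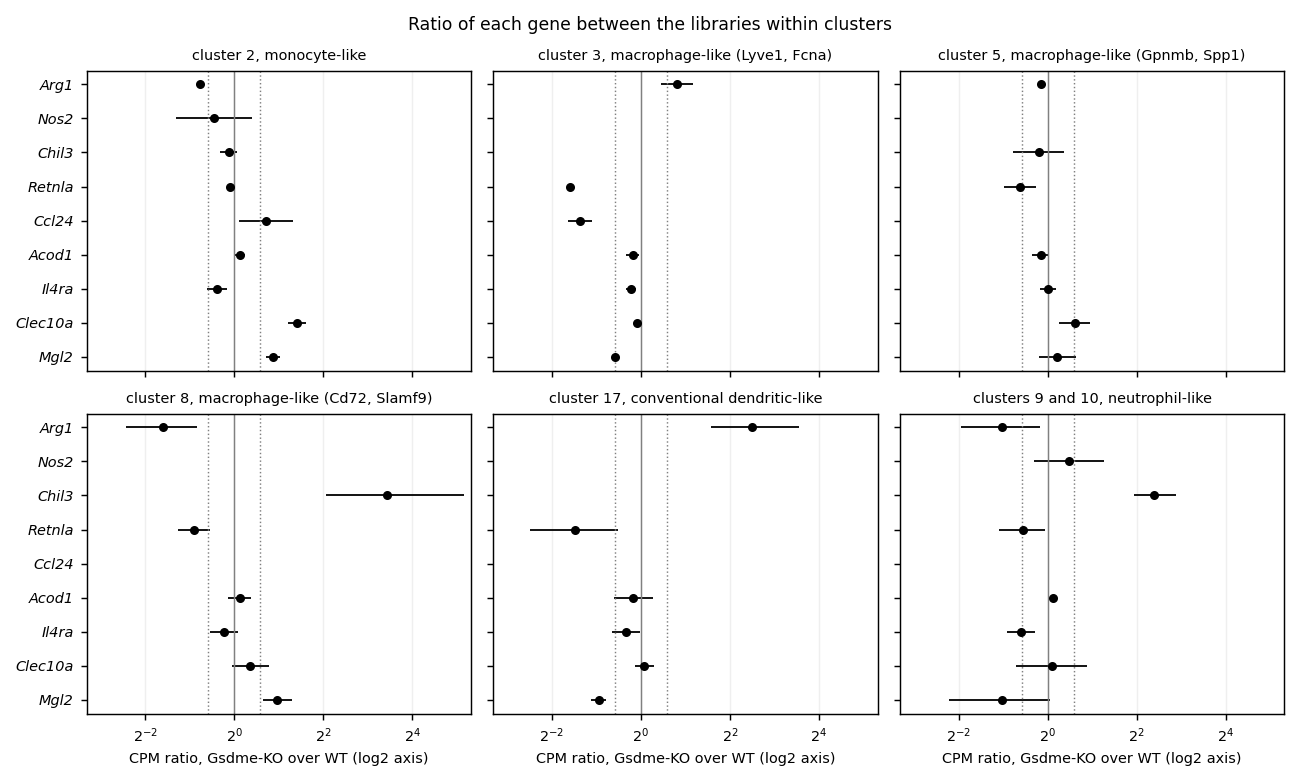
Each panel plots, for 1 cluster or class, the ratio of CPM in Gsdme-KO over WT for the genes with at least 30 UMIs over both libraries and 5 CPM in the higher, on a log2 axis with 95% counting intervals. The solid line marks no difference and dotted lines mark 1.5-fold in either direction. Retnla (0.331) and Ccl24 (0.385) lie left in cluster 3, Clec10a (2.66) lies right in the monocyte-like cluster, and Chil3 (5.29) lies right in neutrophil-like cells.

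The libraries also differed in how their macrophage-like cells were spread over clusters, and several ratios over the whole class followed those shares. Cluster 5 took 13.9% (WT) and 8.17% (Gsdme-KO) of all kept cells, cluster 8 held 7.14% and 3.11%, and cluster 3 held 8.31% and 11.2%. When the Gsdme-KO cluster levels were weighted by the WT cluster shares, the Clec10a ratio over macrophage-like cells was 1.00 in place of 1.83. The Arg1 ratio was 0.895 in place of 0.588, and the Mgl2 ratio was 0.877 in place of 1.34. For Retnla and Ccl24 the ratio moved away from 1, to 0.566 from 0.845 and to 0.429 from 0.745. Higher Clec10a and lower Arg1 over the class thus went with more cluster 3 cells and fewer cluster 5 cells, while Retnla and Ccl24, lower within cluster 3, differed less over the class, where that cluster had a larger share. Over all kept cells and clusters the same weighting gave ratios of 0.802 for Arg1, 1.08 for Clec10a, 0.694 for Retnla and 0.563 for Ccl24.

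**Figure D3:**
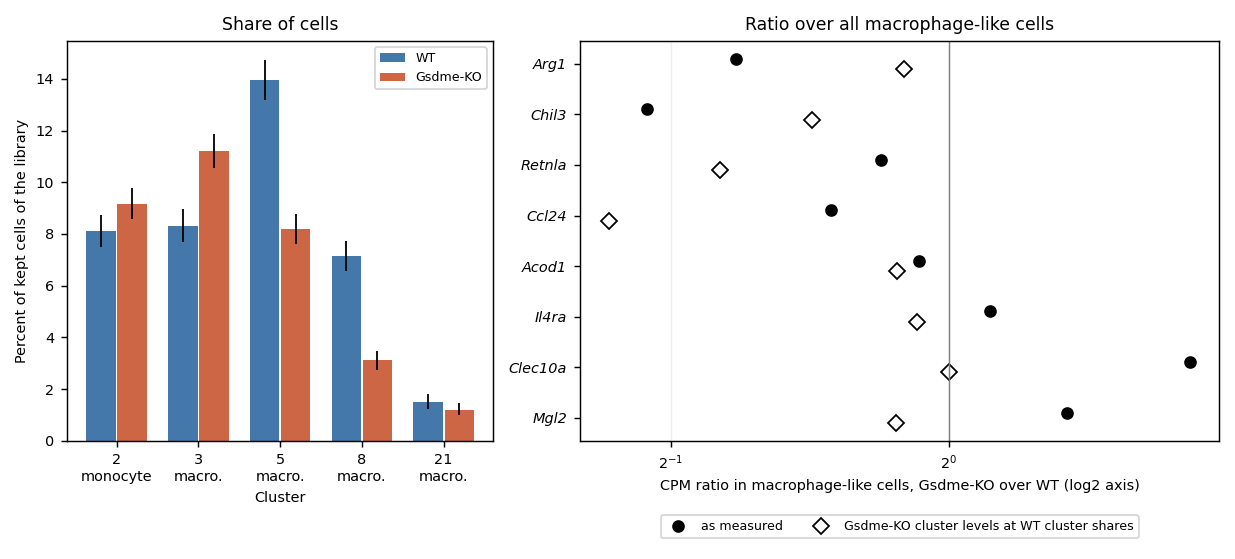
Left, bars give the percent of kept cells of each library in the monocyte-like cluster and in 4 macrophage-like clusters, with 95% binomial intervals. Right, the CPM ratio of Gsdme-KO over WT in macrophage-like cells is plotted on a log2 axis as measured (filled circles) and with Gsdme-KO cluster levels at the WT cluster shares (open diamonds). Clec10a moves from 1.83 to 1.00 and Arg1 from 0.588 to 0.895, while Retnla and Ccl24 move further from 1.

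A finer clustering (Leiden resolution 2), looked at after the data had been seen, divided the monocyte-like and macrophage-like cells into 9 clusters, and the genes peaked in different ones. Arg1 peaked in cells led by Bglap2 and F10, at 3251 and 2736 CPM, and next in cells led by Gpnmb and Mmp12, at 1325 and 1122 CPM. The Bglap2 cells were 3.62% of the WT and 2.83% of the Gsdme-KO library. Retnla peaked in a small cluster led by Lyz1 and Ear2 (80 and 171 cells), at 7979.6 and 5165 CPM, where Arg1 was only 8.85 and 13.97 CPM. Chil3 peaked in cells led by Ly6c2 and Ms4a4c, at 233 and 161 CPM.

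The Lyve1-type cells kept their Retnla difference in this view. Cells led by C6 and Fcna had Retnla at 1788 and 516 CPM and Ccl24 at 66.4 and 23.5 CPM, with Clec10a at 1303 and 1181 CPM. Cells led by H2-Aa and H2-Eb1, genes of antigen presentation, had Retnla at 934 and 513 CPM. The monocyte-like difference in Clec10a was found in the Ly6c2 cells, at 29.3 and 148 CPM, and in the Lyz1 cells, at 193 and 355 CPM. With more Lyz1 cells in the Gsdme-KO library (1.95% against 1.05%), Retnla over all monocyte-like cells stayed nearly level although it was lower within that finer cluster.

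**Figure D4:**
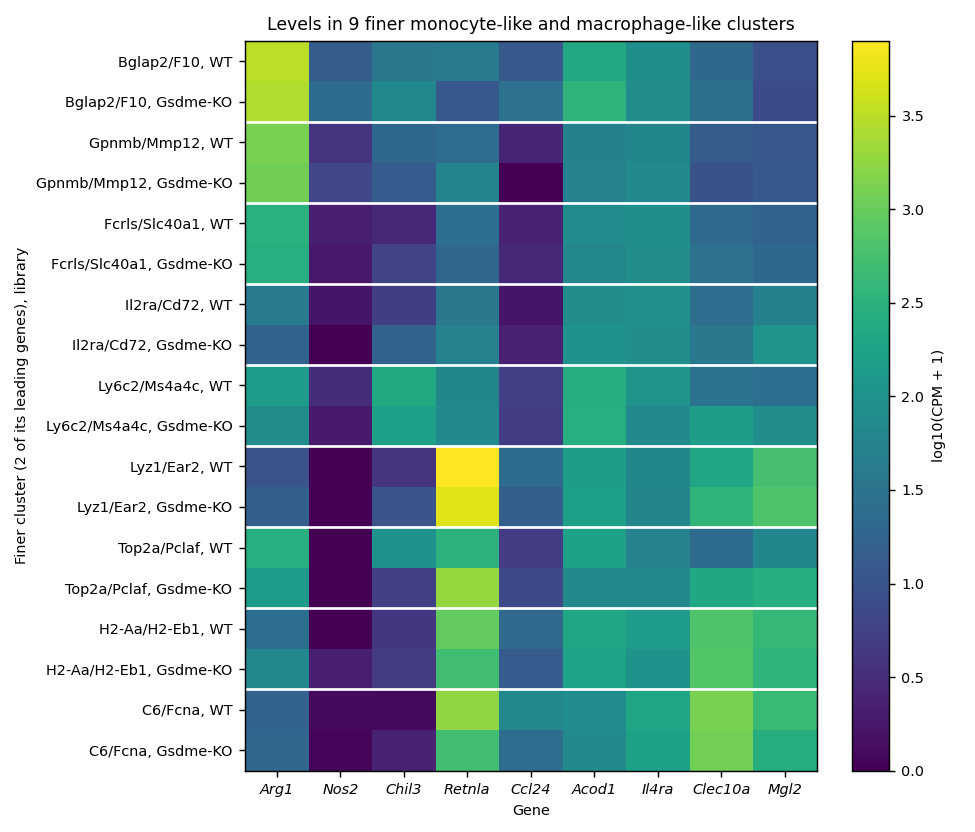
Colour gives log10(CPM + 1) of the 9 genes (columns) in 9 finer clusters of monocyte-like and macrophage-like cells, with the WT and the Gsdme-KO library as neighbouring lines and each cluster named by 2 leading genes. Arg1 is brightest in the Bglap2/F10 and Gpnmb/Mmp12 clusters, Retnla in the Lyz1/Ear2 cluster, and Clec10a in the C6/Fcna cluster (1303 and 1181 CPM).

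In monocyte-like and macrophage-like cells thinned to 1000 UMIs (2870 WT and 2796 Gsdme-KO cells), Retnla was detected in 4.19% of cells with an Arg1 UMI and in 11.2% of cells without in WT, and in 3.17% and 10.4% in Gsdme-KO. Clec10a was detected in 3.14% of Arg1-positive and 17.4% of Arg1-negative WT cells and in 6.67% and 27.05% in Gsdme-KO. Mgl2 was detected in 0.785% and 9.77% in WT and in 2.54% and 11.6% in Gsdme-KO. Over these classes the lectins were detected in a smaller share of Arg1-positive cells in both libraries, but the shares pool clusters that differ in all 3 genes. Within monocyte-like cells Clec10a was detected in 4.31% (1.41 to 9.77) of Arg1-positive and 6.92% (4.81 to 9.58) of Arg1-negative WT cells, intervals that overlap. In Gsdme-KO the shares were 4.24% (1.39 to 9.61) and 12.01% (9.598 to 14.8). In the same order Mgl2 was detected in 0% and 6.29% in WT and in 1.69% and 10.9% in Gsdme-KO. Retnla was detected in 3.45% and 11.7% in WT and in 1.69% and 13.3% in Gsdme-KO. The intervals of Mgl2 and of Retnla did not overlap in either library, but this cluster joins finer clusters that differ in these genes. Retnla went the other way in WT cluster 5, at 3.78% and 2.16%, and in Gsdme-KO cluster 3, at 19.05% and 15.3%, with overlapping intervals. Within Gsdme-KO cluster 3, where 21 thinned cells had an Arg1 UMI, the Clec10a shares were 47.6% (25.7 to 70.2) and 58.6% (55.4 to 61.8) and the Mgl2 shares 19.05% and 19.5%.

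Over the same pooled cells the lectins were detected in a larger share of cells with a Retnla UMI than of cells without, and these shares too pool clusters that differ in the genes. Mgl2 was found in 30.95% of Retnla-positive and 6.02% of Retnla-negative WT cells, and in 30.2% and 8.54% in Gsdme-KO. Clec10a was found in 46.9% of Retnla-positive and 11.96% of Retnla-negative WT cells, and in 42.2% and 22.9% in Gsdme-KO. Mgl2 was found in 28.7% of Clec10a-positive and 4.87% of Clec10a-negative WT cells, and in 20.1% and 7.51% in Gsdme-KO. Acod1 was found in 12.6% of Arg1-positive and 8.36% of Arg1-negative WT cells, and in 11.7% and 9.43% in Gsdme-KO. Within cluster 3, Mgl2 was found in 39.7% (32.7 to 47.0) of Retnla-positive and 24.8% (20.9 to 29.1) of Retnla-negative WT cells. The Gsdme-KO shares were 29.3% (22.2 to 37.3) and 17.7% (15.1 to 20.5). Clec10a by Retnla there gave 67.2% and 56.5% in WT and 61.3% and 57.9% in Gsdme-KO. Mgl2 by Clec10a gave 31.5% and 26.1%, and 21.1% and 17.2%. The intervals of these last 2 pairs overlapped in both libraries. The cells of a library are not replicates, and detection at this depth misses cells with low levels.

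**Figure D5:**
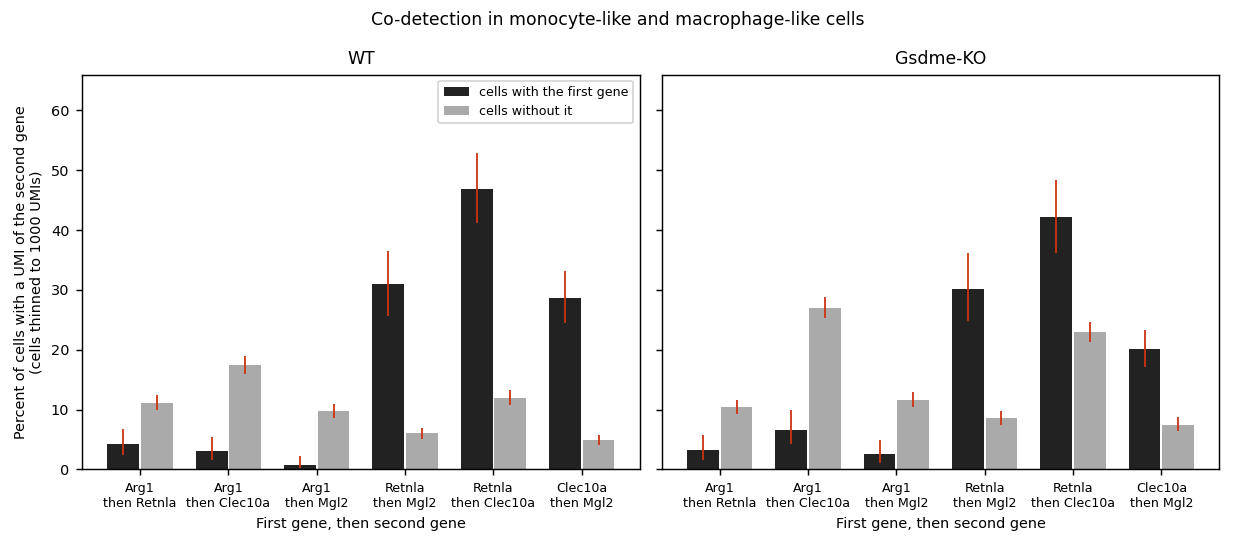
Bars give the percent of thinned monocyte-like and macrophage-like cells with a UMI of the second gene, among cells with (black) and without (grey) a UMI of the first gene, for 6 gene pairs in each library, with 95% binomial intervals. The black bar is below the grey bar for the 3 pairs that begin with Arg1 and above it for the 3 pairs that begin with Retnla or Clec10a.

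Some differences outside the monocyte-like and macrophage-like cells rest on 1 to 3 cells. Retnla in endothelial-like cells stood at 418 and 5.92 CPM, with 96.7% of the WT UMIs in 2 cells. Retnla in platelet-like cells stood at 73.5 and 588 CPM, with 182 of the 186 Gsdme-KO UMIs in 1 cell. Retnla in B cell-like cells stood at 48.8 and 219 CPM, with 82.1% of the Gsdme-KO UMIs in 2 cells. Arg1 in conventional dendritic-like cells stood at 8.80 and 49.7 CPM, with 66 of the 78 Gsdme-KO UMIs in 1 cell, and in endothelial-like cells at 12.2 and 90.8 CPM, with 85 of the 92 Gsdme-KO UMIs in 1 cell. These values describe single cells and were not read as levels of those classes. By class, 2 of 5 measurable genes were higher (Arg1 and Acod1) and 2 lower (Retnla and Clec10a) in endothelial-like cells, beside 8% and 11.3% of all genes. In platelet-like cells 3 of 6 were higher and Acod1 was lower, beside 12.6% and 13%. In B cell-like cells Retnla, Clec10a and Mgl2 were higher and Arg1 lower among 6, beside 10.3% and 15.1%. In T cell-like cells Retnla and Clec10a were lower and none higher among 5, beside 9.78% and 6.97%. The intervals of Retnla in T cell-like cells (0.266 to 1.21) and of Clec10a in endothelial-like cells (0.296 to 1.26) held 1. The T cell-like Clec10a ratio turned to 2.21 after thinning, and the platelet-like Acod1 ratio to 1.66 without the richest 1% of cells. In fibroblast-like cells, by contrast, Retnla was spread over 165 and 123 cells, at 33.5 and 10.4 CPM, a ratio of 0.311 (0.257 to 0.376), and Mgl2 stood at 9.63 and 2.11 CPM. Arg1, Retnla and Mgl2 were the 3 of 6 measurable genes lower there, and none was higher, beside 10.4% lower and 3.34% higher among all genes, and the macrophage markers given above moved the same way.

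Related activation genes outside the 9 were more often higher than lower in Gsdme-KO macrophage-like cells. Of 19 other alternative activation genes, 13 had enough UMIs in macrophage-like cells, 7 were higher and 3 lower by 1.5-fold, beside 3.68% and 5.21% of all genes, with a median log2 ratio of 0.64 against -0.07 for all genes. Cd209d, a lectin, stood at 6.59 and 24.5 CPM (ratio 3.71, 3.02 to 4.59), Fcrls, an Fc receptor-like gene, at 163 and 489.5 CPM (2.999, 2.87 to 3.13), and the mannose receptor Mrc1 at 1333 and 2281 CPM (1.71, 1.68 to 1.74). The growth factor Vegfa stood at 453 and 259.95 CPM (0.573, 0.553 to 0.595) and the transglutaminase Tgm2 at 242 and 148 CPM (0.612, 0.582 to 0.642). Within cluster 3, 1 of 11 measurable genes of this list was higher, none was lower, beside 3.54% and 5.4% of all genes, and the median log2 ratio was 0.01 against -0.06. Retnla and Ccl24 were therefore lower in cluster 3 while the rest of this list was mostly level there. Among the chitinase-like, resistin-like and eotaxin relatives only Ccl8 had enough UMIs, at 657 and 1884 CPM (2.87, 2.81 to 2.93) over all macrophage-like cells. Within clusters its log2 ratio was 0.60 in cluster 3, 0.98 in cluster 5 and -0.85 in cluster 8.

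Most classical activation genes were within 1.5-fold in macrophage-like cells. Of 22 listed, 21 had enough UMIs, 1 was higher and 3 were lower, beside 3.68% and 5.21% of all genes, and the median log2 ratio was -0.42 against -0.07 for all genes. Il1b stood at 2485 and 1627 CPM (0.655, 0.645 to 0.665), Il12b at 8.53 and 3.30 CPM (0.387, 0.282 to 0.527) and Ptgs2 at 786 and 514 CPM (0.654, 0.637 to 0.672). Tnf stood at 1305 and 978 CPM, the NF-kappa B inhibitor Nfkbia at 2262 and 1630.0 CPM, and Marcksl1 at 709 and 769 CPM. Cxcl9 stood at 12.6 and 19.8 CPM (1.57, 1.32 to 1.86) and Il6 at 26.0 and 38.5 CPM (1.48, 1.31 to 1.67). In cluster 3 alone the median was -0.02 against -0.06, and 3 of 21 were higher and 2 lower, beside 3.54% and 5.4%. In monocyte-like cells 5 of 20 were lower and none higher, beside 7.29% and 5.93%, with a median of -0.33 against -0.06.

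Across 22 class and library pairs with at least 50 cells, the genes with the profiles most like 8 of the 9 genes were found among 9830 genes by Pearson correlation of log2(CPM + 1). This is a description over pairs that share libraries and cell classes. For Arg1 they were Msr1 (0.905), Spic (0.856) and Lyz2. For Retnla they were Lyz1 (0.928), Slc7a8 and Tmem37. For Clec10a they were Mrc1 (0.914), Wfdc17 and Mgl2, and for Mgl2 they were Tifab (0.932), Clec10a and Ptpro. For Chil3 they were Cd177 (0.815), Fpr2 and F10, and for Acod1 they were Csf3r (0.956), Slfn4 and S100a8. For Il4ra they were Gna13 (0.948), Prex1 and Wnk1. For Nos2, with few UMIs, they were Agfg2 (0.763), Icam1 and Rgcc.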

How the data were processed

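The deposited files are 1 matrix per library of whole-number counts per feature and barcode, which the authors made from BD Rhapsody captures, as the labels state. These deposited counts were not normalised, and that they are UMIs follows from the platform. CASAVA 1.8, STARsolo and mm10 are listed per the submitters' processing notes. Which gene models were counted was not given in these sources, and GENCODE M21 (GRCm38) supplied positions for 31107 of 31253 feature IDs. Cells with at least 500 UMIs, 250 genes and at most 25% mitochondrial UMIs were kept. Counts per 10000 were logged, 1995 variable genes without the 9 members gave 30 principal components, and 15 neighbours gave Leiden clusters at resolution 1 (scanpy 1.11.5, igraph 0.11.9, scikit-learn 1.9.0, Python 3.11.15). A cluster was named from a marker list with at least 3 markers detected in 25% of its cells. Scrublet called only 4 and 5 doublets, so no call was used, and doublets remain among the cells.

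UMIs were summed per class and library. Levels carry exact Poisson, shares Clopper-Pearson and ratios conditional binomial intervals (scipy 1.17.1), all at 95%. Since single cells can hold many UMIs of a gene, these intervals are too narrow. The 1.5-fold threshold stands in for a test, because each group has 1 library. The ratio script was tested on simulated counts. edgeR 4.0.16 and DESeq2 1.42.0 (R 4.3.3) gave scaling factors for alternatives only. Members and gene lists were chosen with earlier results of these data known. The text names all 9 members, and of each list, in macrophage-like cells (which hold most Arg1 and Clec10a UMIs), the 2 highest and 2 lowest ratios and genes above 500 CPM. It names the 3 most alike genes per member, except for Ccl24, whose result is not reported here. Genes named beyond this rule (Stat6, Il4, Il13, Chil4 and the cluster 3 and monocyte-like values of list genes) were chosen after their values were seen.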

Additional observations from a re-analysis of the deposited data

How the results depend on the processing

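With 1 library per group there is no replicate to leave out. No paired analysis was possible because the groups share fewer than 2 replicate numbers. Of 1125 alternative values for single ratios, those of at least 1.5-fold differences turned direction in 26, moved beyond their counting interval in 106 and stayed within it in 407. Those of smaller differences moved in 143 and stayed in 443. Another 7 had 0 WT UMIs and gave no ratio. All kept cells: against 0 genes higher and 1 lower, thinning to 1000 UMIs gave 1 and 2, a mean over cells 1 and 0, leaving out the richest 1% of cells 2 and 2, no floors 1 and 1, and a 2-fold threshold 0 and 0. Gene and class pairs: against 14 higher and 17 lower, thinning gave 5 and 6, leaving out the richest 1% 8 and 10, a 2-fold threshold 9 and 9, at least 1000 UMIs per cell 9 and 13, and no floors 24 and 23. With at least 1000 UMIs per cell, 5 of 9 genes kept their class with the highest level.

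Turned ratios (Gsdme-KO over WT) without the richest 1% of cells were Arg1 0.671 in conventional dendritic-like, 0.526 in endothelial-like and 0.429 in platelet-like cells and 0.706 in cluster 3, Chil3 2.59 in macrophage-like, Ccl24 0.959 in monocyte-like, Clec10a 4.53 in T cell-like and 1.15 in endothelial-like, and Retnla 0.219 and Acod1 1.66 in platelet-like cells. Thinned, they were Clec10a 2.21 in T cell-like, Ccl24 0.912 in monocyte-like and Mgl2 0.909 in cluster 8. As a mean over cells Clec10a was 1.15 in T cell-like and 1.39 in endothelial-like cells. Without the highest doublet scores Retnla was 0.624 in B cell-like and Clec10a 7.67 in T cell-like cells. With members kept among the clustering genes Arg1 was 1.08 in monocyte-like and Acod1 1.11 in platelet-like cells. With each library clustered alone Ccl24 was 0.770 in monocyte-like, Clec10a 0.951 in cluster 10 and Acod1 1.71 in platelet-like cells. At resolution 2 Arg1 was 1.02 in neutrophil-like, Retnla 1.496 in cluster 8 and Acod1 1.46 in platelet-like cells, and with at most 10% mitochondrial UMIs Acod1 was 1.33 there. The cause was not tested, apart from the few cells named in the account.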

Other observations

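The 5 unnamed clusters held 8.74% of WT and 6.29% of Gsdme-KO Retnla UMIs, and 1.20% and 3.70% of Arg1 UMIs, at medians of 858 and 922 UMIs per cell.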
